A study of Mus musculus with 10 samples.

Results

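The step from 24 h to day 6 of embryoid body (EB) formation was described in mouse ES cells depleted of SMYD5, from 1 shSmyd5 library at day 6 and 1 shSmyd5 library at 24 h. Genes were included when their RPKM (reads per kilobase of transcript, scaled to the size of the library) was at least 3 in either library, which left 9132 of the 22878 listed genes. Of these, 6936 passed the limit in both libraries, 1240 only at day 6 and 956 only at 24 h. A gene that passed in a single library had to differ, so counts of such genes are descriptions. At the limit itself, Ankrd13b was just inside with an RPKM of 0.614 at day 6 and 3.00 at 24 h, and 2900076A07Rik just outside with 3.00 and 2.57.

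PolyA RNA was sequenced from R1 mouse ES cells that carried a lentiviral shRNA, both before and during EB formation. Stages were the ES cell itself and EBs at 24 h and at days 6, 10 and 14. SMYD5 is a methyltransferase linked to trimethylation of histone H4 lysine 20. The 10 libraries came from the same cell line, and which hairpin they carried was not given in the sources used here. Cells for RNA-Seq had been weaned from feeder cells with a GSK3 inhibitor in the medium, and EBs formed in low attachment dishes after LIF was withdrawn. The groups used here were shSmyd5 EBs at day 6, shSmyd5 EBs at 24 h and, side by side with them, EBs with an shRNA against luciferase (shLuc) at day 6 and at 24 h. The labels name no separate cultures. With 1 library per condition none of the differences has a replicate check, and no test across conditions was made.

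ES cells that lose LIF leave the naive state, pass through a state like the primed epiblast and then form the germ layers. In EBs the outer cells become primitive endoderm. Its parietal branch lays down thick basement membrane, and its visceral branch takes up and secretes nutrients and carrier proteins, as the yolk sac does. Sox17, a transcription factor of endoderm, Srgn, which encodes the secretory granule proteoglycan serglycin, and Lama1, the laminin alpha chain of early basement membrane, served as markers of this comparison.

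All 3 markers were higher at day 6. Sox17 (mm9, chromosome 1 from 4481009 to 4486494) had an RPKM of 36.8 at day 6 and 1.17 at 24 h, Srgn (chromosome 10 from 61956581 to 61990199) had 1502 at day 6 and 25.5 at 24 h, and Lama1 (chromosome 17 from 68046605 to 68171985) had 46.0 at day 6 and 2.98 at 24 h. The log2 folds, taken on RPKM plus 0.1 throughout, were 4.86 (95% interval 4.75 to 5.22), 5.87 (5.79 to 5.97) and 3.90 (3.86 to 4.03) in that order. Each interval is the exact binomial interval of the read ratio without the added 0.1, so for genes with few reads it can lie beyond the fold. It covers counting error and compares the libraries, not the conditions. In bulk RNA, more cells of a type and more RNA per cell cannot be told apart. The same step in shLuc EBs gave smaller log2 folds of 1.53 for Sox17, 1.99 for Srgn and 1.14 for Lama1. For Srgn the fold in shSmyd5 less that in shLuc was 3.88 (3.59 to 4.18, a normal approximation from the 4 read counts). It was 4.39 with TMM scaling and 3.12 with the GC and length trend taken out.

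The targeted gene stayed low over the step. Smyd5 (chromosome 6 from 85381983 to 85396429) had an RPKM of 0.492 at day 6 and 0.891 at 24 h in shSmyd5 EBs, against 15.4 and 10.7 in shLuc EBs. Later shSmyd5 libraries held more of it, 9.14 at day 10 and 6.88 at day 14, against 25.0 and 13.1 in shLuc EBs. Reads in genes numbered 38823851 at day 6 and 26181482 at 24 h, and over the 10 libraries they ranged from 3895537 to 43377815.

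Of the 9132 genes, 1746 (19.1%) had a fold of 2 or more up at day 6, 1911 (20.9%) a fold of 2 or more down, and 5475 lay between. Among the genes over the limit in both libraries, 747 were higher and 1181 lower. Of the 1240 passing only at day 6, 999 were at least 2-fold higher, and of the 956 passing only at 24 h, 730 were at least 2-fold lower. Counts for the lists below stand beside the shares of 19.1% and 20.9%. Differences of at least 8-fold were more often increases, with 393 genes higher and 184 lower. The median log2 fold was -0.10 over the 9132 genes and 0.00 over the 12277 genes whose RPKM averaged 1 or more over the 10 libraries. Those 12277 genes are the background for the list medians below. In shLuc EBs, 9385 genes passed the limit, 2583 (27.5%) were at least 2-fold higher at day 6 and 678 (7.22%) at least 2-fold lower. There the median over the 12277 genes was 0.50. The shLuc values depend on scaling, which was examined after seeing the data. With TMM scaling the shLuc folds shift by -0.46 and with DESeq2 size factors by -0.54, whereas the shSmyd5 folds shift by 0.06 and by 0.00. The shLuc counts then become 1590 higher and 1293 lower (TMM) or 1445 higher and 1505 lower (DESeq2). A shLuc median is therefore best read against the 0.50 of all genes, and a shSmyd5 median against 0.00.

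**Figure D1:**
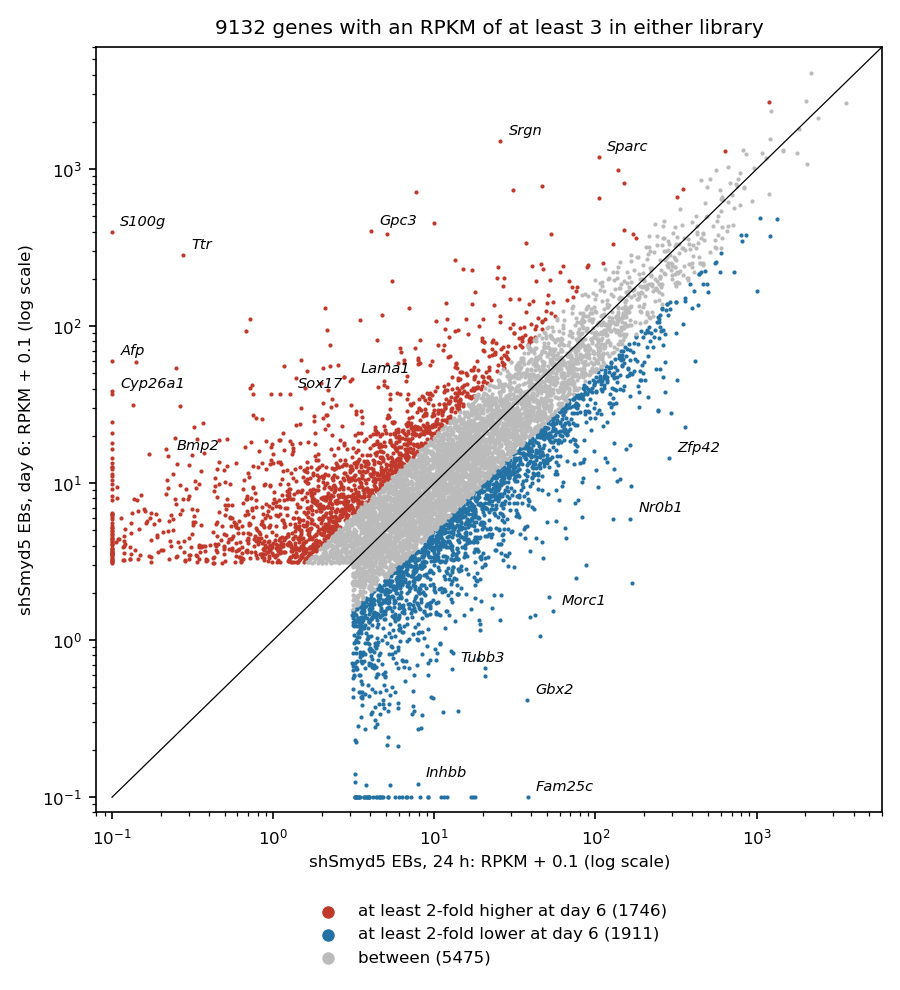
RPKM plus 0.1 of 9132 genes in shSmyd5 EBs at day 6 (y axis, log scale) against 24 h (x axis, log scale), 1 point per gene and 1 library per axis; the line marks equal values. The 1746 genes higher by 2-fold or more are red and the 1911 lower by 2-fold or more blue, and genes with 0 reads in a library lie at 0.1.

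Where RPKM reached 10 in either library, the 12 highest folds belonged to S100g, Ttr, Afp, Lgals2, Apoc2, Cyp26a1, Snord12, Apob, Slc39a8, Mir678, Maf and Apoa4. S100g, which encodes an intestinal and placental calcium-binding protein (calbindin), had an RPKM of 399 at day 6 and 0 reads at 24 h. Counted against a floor of 3 reads for the 24 h library, it was at least 2673-fold higher. Its RPKM in shLuc EBs was 26.7 at day 6 and 0.325 at 24 h. The same floor gave at least 1732-fold for Afp, alpha-fetoprotein, which had 59.5 at day 6 and 0 reads at 24 h. It also gave at least 913-fold for Cyp26a1, the enzyme that degrades retinoic acid (RPKM 36.7 at day 6), and at least 909-fold for Maf, a bZIP transcription factor (17.9 at day 6). Lgals2, the lectin galectin-2, had 58.8 at day 6 and 1 read at 24 h, with a log2 fold of 8.71 (8.03 to 15.81). Slc39a8, a zinc and metal ion importer, had 54.4 at day 6 and 0.149 at 24 h (log2 fold 7.78, 7.92 to 9.19). Snord12 and Mir678 are features of 66 and 84 bases with 104 and 112 reads at day 6 and 0 at 24 h, at least 22.5-fold and 24.3-fold higher. Their RPKM was 43.4 and 16.3 in shSmyd5 ES cells, and 24.5 and 20.7 at day 6. In these polyA libraries, reads of such short features cannot be told apart from reads of longer transcripts over the same bases.

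The promoters of 4 of these genes are shown because the genes were at 0 or 1 read at 24 h and among the highest at day 6. They are the 300 bases from 250 before to 50 after the annotated start, from RefSeq on GRCm38.p6, 5′ to 3′ on the strand of the gene: S100g at chrX:162964550-162964849 (minus strand), Afp at chr5:90490464-90490763 (plus), Lgals2 at chr15:78855480-78855779 (minus) and Apoc2 at chr7:19677892-19678191 (minus). Capitals mark matches to motifs of endoderm factors, searched on either strand, and the TATA box, searched on the strand of the gene. The HNF1 half-site was spelled GTTAAT. For HNF4 the letters were CAAAGTCC, for the GATA factors they were AGATAA and for the FOXA factors they were TGTTTAC. The TATA box was spelled TATAAA. No matches overlapped in these windows.
S100g: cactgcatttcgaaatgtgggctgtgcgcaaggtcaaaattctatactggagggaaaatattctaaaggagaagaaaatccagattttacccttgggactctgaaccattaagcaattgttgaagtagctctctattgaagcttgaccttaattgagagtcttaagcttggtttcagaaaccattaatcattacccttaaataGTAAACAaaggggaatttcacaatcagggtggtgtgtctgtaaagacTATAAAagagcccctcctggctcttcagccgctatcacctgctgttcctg
Afp: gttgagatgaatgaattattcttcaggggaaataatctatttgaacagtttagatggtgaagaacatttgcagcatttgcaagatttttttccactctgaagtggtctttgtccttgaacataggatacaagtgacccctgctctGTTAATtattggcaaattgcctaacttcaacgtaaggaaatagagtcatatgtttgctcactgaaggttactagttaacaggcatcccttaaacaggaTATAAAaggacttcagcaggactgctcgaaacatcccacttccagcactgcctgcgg
Lgals2: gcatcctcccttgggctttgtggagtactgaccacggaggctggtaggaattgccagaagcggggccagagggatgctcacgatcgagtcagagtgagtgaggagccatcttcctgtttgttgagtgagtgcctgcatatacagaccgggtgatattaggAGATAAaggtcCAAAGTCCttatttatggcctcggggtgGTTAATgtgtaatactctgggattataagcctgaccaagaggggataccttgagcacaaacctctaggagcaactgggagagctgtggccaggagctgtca
Apoc2: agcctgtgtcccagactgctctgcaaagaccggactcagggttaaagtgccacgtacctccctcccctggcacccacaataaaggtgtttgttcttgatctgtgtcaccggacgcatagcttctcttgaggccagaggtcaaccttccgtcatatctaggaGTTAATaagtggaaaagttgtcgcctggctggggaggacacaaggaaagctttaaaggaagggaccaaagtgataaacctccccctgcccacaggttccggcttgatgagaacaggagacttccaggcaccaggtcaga
Afp and S100g held TATAAA, Afp, Lgals2 and Apoc2 each held 1 HNF1 half-site, S100g held 1 FOXA match, and Lgals2 also held 1 GATA and 1 HNF4 match. Of all 32851 RefSeq promoters of this length, 7.10% held the HNF1 half-site, 1.42% the HNF4 half-site, 11.2% the GATA letters, 3.65% the FOXA letters and 8.32% the TATA box. A match describes the letters and is no evidence that a factor binds. A promoter was found for 79.8% of the 9132 genes, under the 80% needed for a comparison, so no share over these genes is given.

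Secreted carrier proteins of yolk sac and liver were among the genes with the largest increases. Of 17 listed genes 11 passed the limit and were at least 2-fold higher, but 10 of the 11 passed only through day 6, so that count was largely set by the filter. The median log2 fold of the list was 5.69, or 6.05 with the genes at 0 reads set to their floor, against 0.00 over all 12277 genes and 4.51 for the same list in shLuc EBs. Ttr, the carrier of thyroid hormone and retinol-binding protein, had an RPKM of 285 at day 6 and 0.176 at 24 h (log2 fold 10.01, 9.73 to 11.79). Apob, the structural protein of low-density lipoproteins, had 31.5 at day 6 and 0.0344 at 24 h, which rests on 28224 and 20 reads. Apoc2, the activator of lipoprotein lipase, and Apoa4 had 0 reads at 24 h and were at least 341-fold and 383-fold higher. Rbp4, the retinol carrier, had 110.2 at day 6 and 0.617 at 24 h. Apoe was the carrier already present at 24 h, with 232 at day 6 and 47.5 at 24 h. Over the stages of shSmyd5 the whole list summed to 517 in ES cells, 52.3 at 24 h and 871 at day 6. Ttr and Afp had an RPKM of 0 in ES cells. Of 13 RefSeq promoters of 10 of these 11 genes, 4 (30.8%) held the HNF1 half-site, 4 (30.8%) the TATA box, 2 (15.4%) the FOXA letters and 0 the GATA or HNF4 letters, and promoters of the same gene may share bases.

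Of 11 endoderm transcription factors 10 passed and 10 were at least 2-fold higher, 7 of them passing only through day 6, with a list median of 3.63, against 2.30 in shLuc EBs. Foxa2, a pioneer factor of endoderm, had an RPKM of 15.5 at day 6 and 0.27 at 24 h (log2 fold 5.40, 5.27 to 6.49). Gata4, which switches on the primitive endoderm programme, had 47.2 at day 6 and 2.63 at 24 h (4.11, 4.01 to 4.32). Hnf4a, a regulator of visceral endoderm, had a log2 fold of 4.09. Hhex had the smallest of the 10, at 1.20. Foxa1 was higher at day 6 in shSmyd5 EBs (RPKM 6.24 and 0.765) and lower at day 6 in shLuc EBs (1.40 and 3.04).

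Genes of uptake and digestion, which are prominent in visceral endoderm, included large folds. Of 10 listed endocytic receptors and partners 8 passed and 8 were at least 2-fold higher, 3 of them passing only through day 6 (list median 3.26, against 2.35 in shLuc EBs). Dab2, the endocytic adaptor, had an RPKM of 457 at day 6 and 9.80 at 24 h (log2 fold 5.53, 5.48 to 5.61). Cubn, the receptor cubilin, had 37.1 at day 6 and 1.00 at 24 h, and Amn, its membrane anchor amnionless, had 23.5 and 1.28 at the same stages. Among lysosomal proteins 18 of 21 were at least 2-fold higher and 0 lower, with a median of 1.75 in shSmyd5 and 1.80 in shLuc EBs. The limit was passed only through day 6 by 3 of the 21. Ctsh, the protease cathepsin H, had 92.6 at day 6 and 0.574 at 24 h (log2 fold 7.10, 6.88 to 7.83), with Lamp2, a lysosomal membrane protein, at 4.74 and Hexa, a hexosaminidase chain, at 4.62. Hexa had an RPKM of 11.0 in shSmyd5 ES cells, 0.397 at 24 h and 12.1 at day 6, whereas Ctsh had 0.375 in ES cells. Glb1, a galactosidase, and Psap, the saposin precursor, had log2 folds of -0.10 and 0.19.

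Genes of parietal endoderm and its matrix gave some of the highest RPKM values of the day 6 library. Of 8 measured parietal endoderm genes 7 passed and were at least 2-fold higher, 4 of them passing only through day 6, with a median of 3.64 in shSmyd5 and 2.06 in shLuc EBs. The marker Srgn is among these 7. Pth1r, the receptor of parathyroid hormone-related protein, had 11.3 at day 6 and 0.138 at 24 h, and Fst, the activin-binding protein follistatin, had 39.2 and 2.10 at these stages. Of 13 basement membrane components that passed, 8 were higher, 0 lower and 5 between, and 2 of the 13 passed only through day 6. The list median was 1.51 in shSmyd5 and 1.54 in shLuc EBs, or 1.57 and 1.09 with TMM scaling. Col4a1, a type IV collagen chain, had 265 at day 6 and 13.4 at 24 h (log2 fold 4.30, 4.26 to 4.36). Sparc, a collagen-binding matrix protein, had 1197 at day 6 and 105 at 24 h (3.51, 3.49 to 3.54). Nid1, Lamc1 and Lamb1 had folds of 1.43, 2.02 and 3.41, whereas Col18a1 had -0.84.

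Enzymes that fold collagen and proteins that carry sugar chains were also among the genes that were higher. Of 10 collagen enzymes that passed, 6 were at least 2-fold higher and 1 lower (list median 1.07 in shSmyd5, 0.81 in shLuc EBs). The limit was passed only through day 6 by 2 of the 10 and only through 24 h by 1. The prolyl hydroxylases P4ha1 and P4ha2 had log2 folds of 3.45 and 3.36. Pcolce, which enhances the cleavage of procollagen, was the one that was lower, with 1.67 at day 6 and 19.5 at 24 h. Among proteoglycan genes 8 of 14 were higher and 0 lower, 4 of the 14 passing only through day 6, with medians of 1.37 and 1.57. Gpc3, a glypican of the cell surface, had 401 at day 6 and 3.93 at 24 h (log2 fold 6.64, 6.53 to 6.82), and Gpc6 had 5.47 and 0.0318. Spock1, a secreted testican, had a log2 fold of 4.90 in shSmyd5 and 0.44 in shLuc EBs, and Hs3st1, a heparan sulfate sulfotransferase, had 4.22 and 1.89 in that order.

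**Figure D2:**
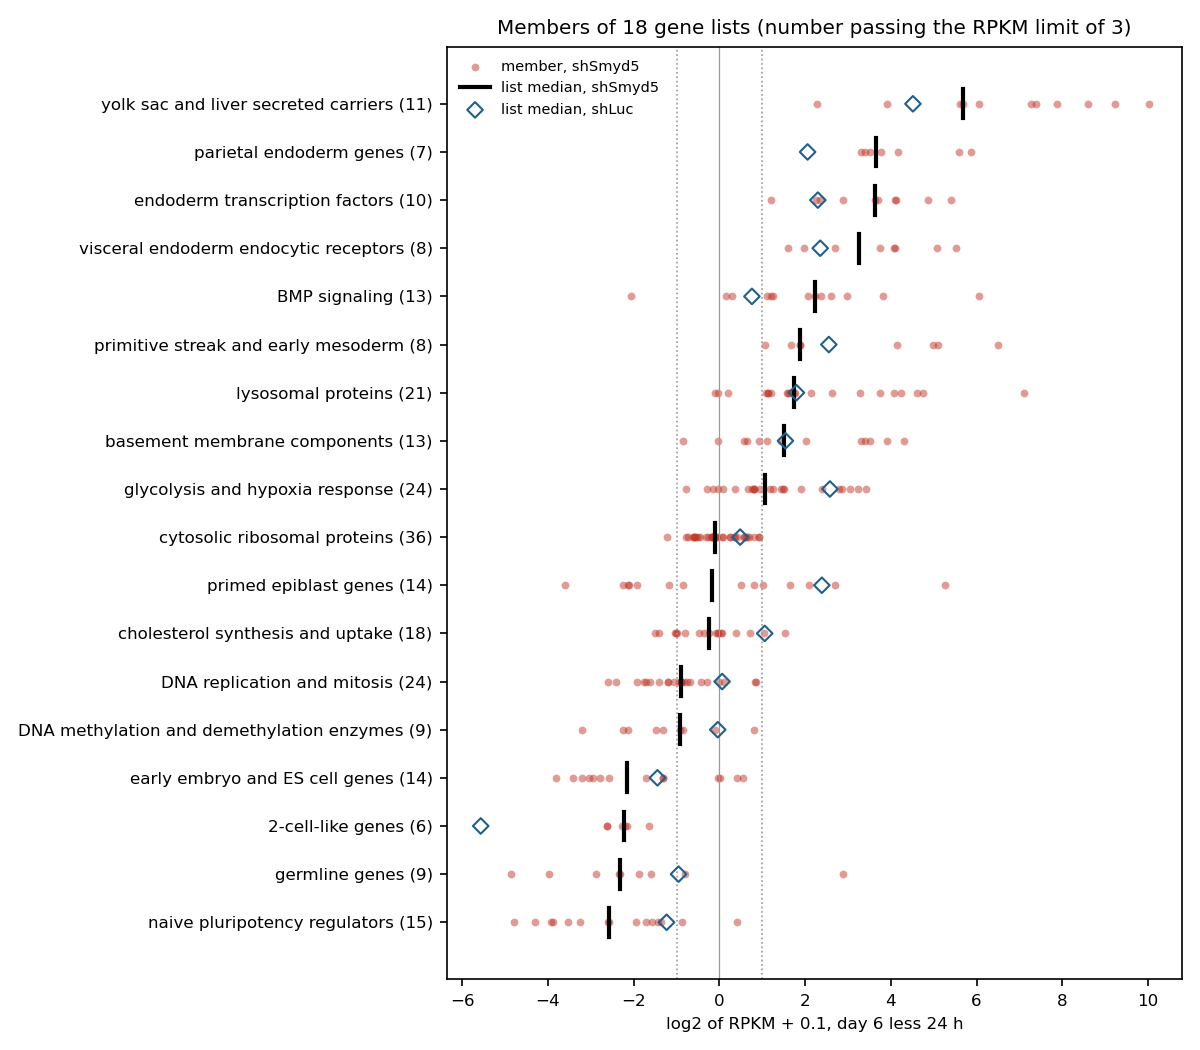
Log2 fold, day 6 less 24 h, of the members of 18 gene lists that passed the RPKM limit of 3 in shSmyd5 EBs (points), with the list median over members with a mean RPKM of at least 1 in shSmyd5 (bars) and shLuc EBs (diamonds); numbers in parentheses count the points, and the shLuc medians stand beside 0.50 for all genes. Carriers lie highest with a median of 5.69 and naive pluripotency regulators lowest with -2.58.

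Naive pluripotency regulators were lower at day 6. Of 15 that passed, 13 were lower by 2-fold or more and 0 higher, and the median was -2.58 in shSmyd5 and -1.23 in shLuc EBs. Nr0b1 (DAX1), a nuclear receptor of the ES cell network, had an RPKM of 5.84 at day 6 and 164 at 24 h (log2 fold -4.78, -4.92 to -4.70). Zfp42 (REX1), the classic marker of the naive state, had 14.4 at day 6 and 287 at 24 h, and Nr5a2, which binds the Pou5f1 promoter, had 0.504 and 9.07 at these stages. In shSmyd5 ES cells Nr0b1 had 83.6 and Zfp42 31.9, below their 24 h values, and Nr5a2 had 19.8, above its 24 h value. The whole list summed to 1601 in shSmyd5 ES cells, 1516 at 24 h and 316 at day 6. Pou5f1 (OCT4) had a fold of -2.58 (-2.65 to -2.53) in shSmyd5 EBs, with 35.2 at day 6 and 212 at 24 h, and of -0.16 in shLuc EBs. Klf2 and Nanog had -2.59 and -1.95 in shSmyd5 EBs and -0.64 and -0.46 in shLuc EBs. Esrrb, an orphan receptor of the network, had 4.34 at day 6 and 65.1 at 24 h in shSmyd5 EBs, against 30.8 and 61.9 in shLuc EBs. Klf4 was lower by less in shSmyd5 EBs (-0.88) than in shLuc EBs (-3.41). Dppa3 was the only member with a positive fold, 0.40 in shSmyd5 and 2.10 in shLuc EBs.

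Of 14 early embryo genes 10 were lower by 2-fold or more and 0 were higher, with medians of -2.14 in shSmyd5 and -1.45 in shLuc EBs. Gdf3, a TGF-beta ligand, had 1.25 at day 6 and 18.7 at 24 h, Dppa2, a chromatin protein of early embryos, had 12.3 and 131, and Dnmt3l, a cofactor of DNA methylation, had 17.5 and 163. In shSmyd5 ES cells Gdf3 had 34.2, Dppa2 40.5 and Dnmt3l 184, so that Dppa2 was highest at 24 h. The 12 lowest folds at an RPKM of at least 10 belonged to Fam25c, Gm1631, Mir1905, Mir3064, Snora68, Snora15, Mir202, Gbx2, Gm7325, BC033916, C330046G13Rik and Morc1. Gbx2 (chromosome 1 from 91824537 to 91829865), a homeobox gene that LIF signaling sustains in ES cells, had 0.314 at day 6 and 37.6 at 24 h (log2 fold -6.51, -7.37 to -6.47), close to its -6.02 in shLuc EBs. Morc1, which silences transposons in germ cells, had 1.43 at day 6 and 54.7 at 24 h. Gm7325, listed by RefSeq also as the muscle fusion gene Mymx, had 2.22 and 168. Gm1631 and C330046G13Rik are long noncoding RNAs that RefSeq also lists as Platr26 and Platr7. Fam25c and Gm1631 had 0 reads at day 6 and were at least 298-fold and 246-fold lower. The 5 miRNA and snoRNA features of 67 to 116 bases on this list had 33 to 59 reads at 24 h and 0 at day 6. Whether those reads came from the small RNAs or from longer transcripts was not tested.

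Of 10 listed 2-cell-like genes, the 6 that passed were Zscan4 copies, and they passed only through 24 h, at 1.34 to 2.44 at day 6 and 7.06 to 8.86 at 24 h, with a median of -2.23. These copies are near-identical and reads could have been split among them, so they are no separate measurements. In shLuc EBs, where Zscan4c had 2.08 at day 6 and 115 at 24 h, the median was -5.57. Of 9 germline genes 7 were lower by 2-fold or more and 1 higher, and 5 of the 9 passed only through 24 h (median -2.33 in shSmyd5 and -0.95 in shLuc EBs). Stra8, the retinoic acid responsive gatekeeper of meiosis, had 0.171 at day 6 and 7.82 at 24 h, and Hormad1, a protein of the meiotic chromosome axis, had 0.73 and 13.0. Sycp3, of the synaptonemal complex, was the one that was higher, with 202 at day 6 and 27.1 at 24 h, and it was at 10.3 by day 10.

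Primed epiblast genes split in shSmyd5 EBs, and 3 of the 14 passed only through day 6 and 2 only through 24 h. Of 14 genes 5 were at least 2-fold higher and 6 lower, with a median of -0.18 (0.49 over the members whose mean RPKM was at least 3), whereas in shLuc EBs 9 were higher, 1 was lower and the median was 2.39. Fgf5, the ligand that marks the postimplantation epiblast, had 36.9 at day 6 and 0.869 at 24 h (log2 fold 5.26, 5.11 to 5.72), near the 5.87 of shLuc EBs. Sall2, a zinc finger factor, had folds of 2.69 and 3.92 in shSmyd5 and shLuc EBs. Lef1, a transcription factor of Wnt signaling picked out here after its values were seen, had 6.09 at day 6 and 26.5 at 24 h in shSmyd5 EBs and 16.9 at day 6 and 1.14 at 24 h in shLuc EBs. Etv4, a target of FGF signaling, was lower in both courses, at -3.59 in shSmyd5 and -2.47 in shLuc EBs. Dnmt3b, the de novo methyltransferase of the epiblast, had 0.81 in shSmyd5 and 3.83 in shLuc EBs.

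Of 20 listed primitive streak and early mesoderm genes 8 passed and were at least 2-fold higher, 5 of them passing only through day 6, with medians of 1.87 in shSmyd5 and 2.55 in shLuc EBs. T (brachyury), the mesoderm factor, had 15.2 at day 6 and 0.0701 at 24 h, from 2001 and 6 reads, a log2 fold of 6.49 (6.64 to 9.21). Its RPKM was then 1.31 at day 10 and 0.0874 at day 14. Wnt3, the streak inducer, had 3.06 at day 6 and 0 reads at 24 h, at least 133-fold higher. Fgf8 had 4.01 at day 6 and 1 read at 24 h (5.10, 5.17 to 12.96). Of the mesenchymal genes Zeb1, a repressor of E-cadherin, had 0.57 at day 6 and 6.87 at 24 h, and Twist1 had 15.5 and 4.16. In all 4 of 8 mesenchymal genes were higher and 3 lower, and 1 of the 8 passed only through 24 h.

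**Figure D3:**
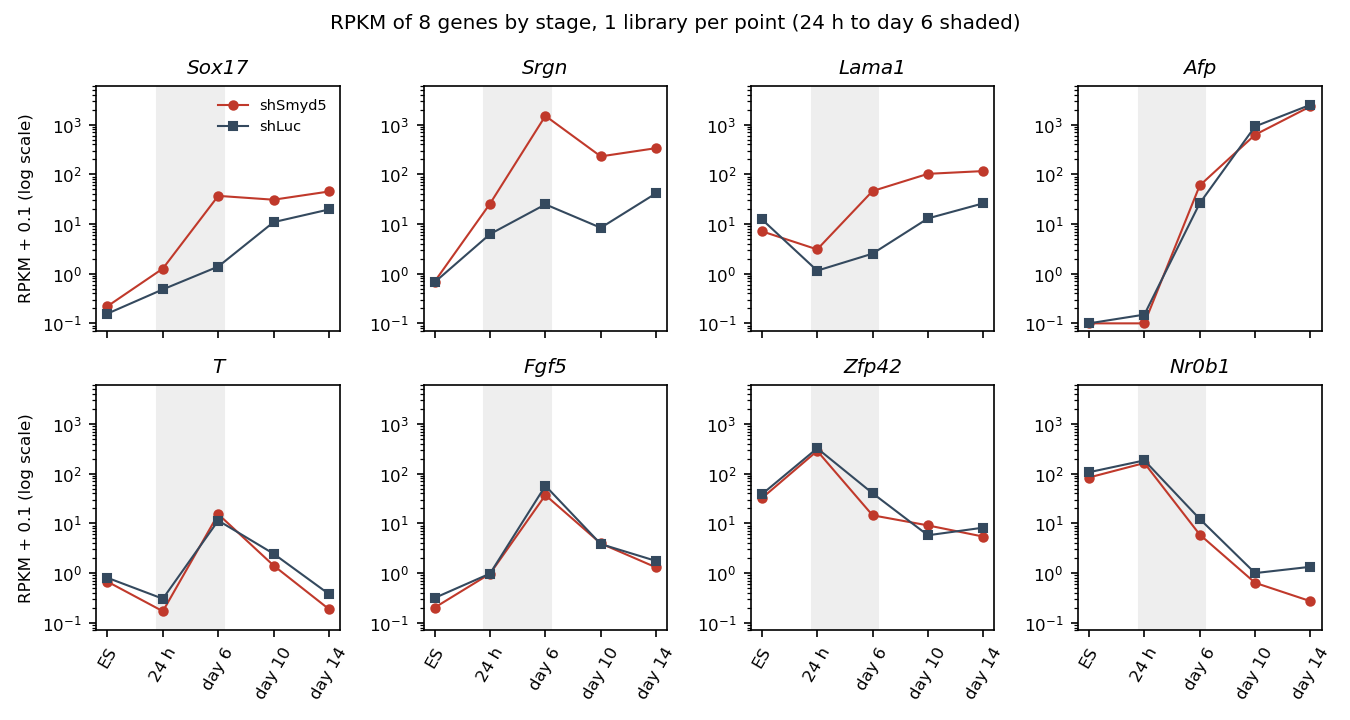
RPKM plus 0.1 (y axis, log scale) of 8 genes by stage, from ES cells through EBs of 24 h to day 14 (x axis), in shSmyd5 (circles) and shLuc (squares), 1 library per point, with the step from 24 h to day 6 shaded. In shSmyd5 EBs Srgn peaks at 1502 and T at 15.2 at day 6, whereas Afp reaches 2332 by day 14.

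Of 14 epithelial junction and keratin genes 10 were at least 2-fold higher and 0 lower, and 8 of the 14 passed only through day 6 (medians 3.17 in shSmyd5 and 3.30 in shLuc EBs). Krt18, a keratin of simple epithelia, had 94.0 at day 6 and 2.06 at 24 h. Cldn7, a claudin of tight junctions, had 10.4 at day 6 and 0 reads at 24 h, at least 190.2-fold higher, and Cldn3 had 7.87 at day 6 and 2 reads at 24 h (5.85, 5.84 to 10.75). In shSmyd5 ES cells Cldn7 had 6.28, Cldn3 2.49 and Krt18 4.56, all above their 24 h values. Of 8 trophoblast genes 7 were higher, and 7 passed only through day 6, with medians of 2.26 and 2.55. Esx1, an X-linked homeobox gene of the placenta, had 22.5 at day 6 and 0.224 at 24 h in shSmyd5 EBs, a fold of 6.13 against 1.13 in shLuc EBs. Plac1, a placental gene of the same chromosome, had 4.37 at day 6 and 0 reads at 24 h, at least 65.2-fold higher.

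Few genes of later lineages reached an RPKM of 3. No member of the cardiac list did, and of the erythroid and blood list only Runx1, a blood transcription factor, with 3.67 at day 6 and 0.339 at 24 h. Of 4 endothelial genes Flt1, a VEGF receptor, was higher (9.28 and 0.122), and Pecam1, Esam and Eng were lower, with folds of -2.48, -2.91 and -1.63. Flt1 passed only through day 6 and the other 3 only through 24 h, so these directions were set by the filter. ES cells themselves express Pecam1. Of 5 neural genes Nes, the filament nestin, and Sox11 were higher (folds 3.48 and 1.96) and Tubb3, a neuronal tubulin, was lower, with 0.559 at day 6 and 12.8 at 24 h. Here too the filter set the directions, since 3 of the 5 passed only through day 6 and 2 only through 24 h. As to other cell types, 12 fibroblast markers summed to an RPKM of 23.5 at day 6 and 6.29 at 24 h, of which Tagln, an actin-binding protein, made up 13.5 at day 6. Thy1 had 2.71 and 3.99. Blood markers summed to 0.682 and 0.178, endothelial markers to 2.92 and 9.39, and 2-cell-like markers to 9.67 and 48.2. The part of such cells in the differences was not tested. ES cell markers (Pou5f1, Nanog, Sox2, Zfp42 and Esrrb) summed to 167 at day 6 and 873 at 24 h.

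In BMP signaling 10 of 13 genes were up by 2-fold or more, 1 was down, 6 passed only through day 6, and the list had a median of 2.23, against 0.76 in shLuc EBs. The ligand Bmp2 had 14.7 at day 6 and 0.123 at 24 h (log2 fold 6.05, 6.12 to 7.81), the antagonist Nog had 9.02 and 0.547, and the receptor Bmpr2 had 12.1 and 1.46. The ligand Bmp4 was the gene that was lower, with 11.0 at day 6 and 46.6 at 24 h. For Bmp2 the fold in shSmyd5 less that in shLuc was 3.71 (2.75 to 4.66), for Nog 3.10 (2.10 to 4.10) and for Bmpr2 2.39 (2.11 to 2.66). Of 12 Nodal pathway genes, 2 passing only through day 6 and 3 only through 24 h, 4 were higher and 6 lower. The list median was -0.34, and 0.31 in shLuc EBs, where TMM scaling turns it to -0.14. Inhbb, the activin beta B chain, had 0.0219 at day 6 and 7.78 at 24 h, from 6 and 1386 reads.

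FGF and Wnt genes went both ways. Of 15 FGF genes, 4 passing only through day 6 and 1 only through 24 h, 5 were higher and 6 lower. The ligand Fgf4 had -3.26, the ligand Fgf10 3.34 and the feedback inhibitor Spry4 -3.48, and the list medians were -0.66 and 0.65. Of 14 Wnt genes, 6 passing only through day 6 and 2 only through 24 h, 8 were higher and 4 lower (1.32 and 1.47). The secreted Wnt inhibitor Sfrp5 and the ligand Wnt11 had 0 reads at 24 h and 675 and 617 at day 6, at least 146-fold and 134-fold higher. Of the retinoic acid genes that passed, Rarg, a retinoic acid receptor, had 3.26 at day 6 and 47.1 at 24 h, whereas Cyp26a1 and the retinal reductase gene Dhrs3 (fold 3.35) were higher.

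Of 24 replication and mitosis genes 10 were lower by 2-fold or more in shSmyd5 EBs, 14 lay between and 0 were higher, and the median was -0.90. In shLuc EBs 0 were lower, 0 were higher and the median was 0.06, a value that TMM scaling turns to -0.39 and DESeq2 size factors to -0.48. E2f1, the S phase transcription factor, had 0.593 at day 6 and 4.12 at 24 h (log2 fold -2.60, -3.13 to -2.47), and 0.79 in shLuc EBs. Cdc6 and Mcm2, which license origins, had -2.41 and -1.92 in shSmyd5 EBs and -0.25 and 0.46 in shLuc EBs. The shLuc fold of Mcm2 was -0.08 with the GC and length trend taken out. Not all members moved this way, since Mki67 and Bub1 had 0.83 and 0.86. Of 12 G1 regulators 5 were higher and 5 lower, and the median of 0.23 turned to -0.15 without the GC and length trend. Ccne1 (cyclin E1) had 10.1 at day 6 and 82.5 at 24 h, and Cdkn1c, an imprinted CDK inhibitor, 14.5 and 115. Ccnd2 (cyclin D2) had 7.56 at day 6 and 1.64 at 24 h.

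The p53 and stress lists had shares of called genes near or below those of all genes (19.1% higher and 20.9% lower). Trp53 itself had 53.1 at day 6 and 250.4 at 24 h (log2 fold -2.24, -2.28 to -2.20), whereas its targets Cdkn1a, a CDK inhibitor, and Bbc3, a death effector, had folds of 2.09 and 1.67; in all 3 of 14 genes were higher and 3 lower. Of 17 stress genes 1 was higher and 3 were lower. The higher one, Atf3, an immediate stress factor, had 9.11 at day 6 and 0 reads at 24 h, at least 251-fold, while Asns, which makes asparagine, and Sesn2 had -1.54 and -1.25. Of the metallothionein list Mt1 had 2692 at day 6 and 1192 at 24 h, and Mt2 and the zinc exporter Slc30a1 had folds of 0.23 and 0.45, the second of which was -0.05 with the GC and length trend taken out.

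Glycolysis and cholesterol lists had higher medians in shLuc than in shSmyd5 EBs under every scaling run. Of 24 glycolysis and hypoxia genes 12 were up by 2-fold or more and 0 were down in shSmyd5 EBs with a median of 1.07, against 21 of 24 and a median of 2.58 in shLuc EBs. The glycolysis list summed to an RPKM of 4651 at day 6 and 2724 at 24 h in shSmyd5 EBs, and 4723 and 1010 in shLuc EBs. The sums were thus close at day 6 and differed at 24 h. In shSmyd5 EBs the members with the largest folds were as follows. Adm, the hypoxia-induced peptide adrenomedullin, had 22.2 at day 6 and 1.99 at 24 h, Egln1, an oxygen sensor, had 60.6 and 6.36, and Ddit4, an mTORC1 inhibitor, had 204 and 24.5. Slc16a3, a lactate exporter, had 1.47 in shSmyd5 and 4.85 in shLuc EBs. Of 18 cholesterol genes 2 were higher and 4 lower (median -0.24), shares near or below those of all genes in shSmyd5 EBs (19.1% higher and 20.9% lower). In shLuc EBs 11 of 18 were higher and 0 lower (1.06, or 0.61 with TMM scaling), where 27.5% of all genes were higher and 7.22% lower. Fdps, of the mevalonate pathway, had 10.0 at day 6 and 28.4 at 24 h in shSmyd5 EBs and 25.5 and 9.80 in shLuc EBs. Mvd, of the same pathway, had 2.50 and 6.78 in shSmyd5 EBs and 11.6 and 4.75 in shLuc EBs. Insig1, the sterol sensor partner, was higher in both, at 1.53 and 1.11. Among 36 genes of ribosomal proteins, Rplp1 was lower (-1.22) and 0 were higher, with a median of -0.11 that turned to 0.24 when the GC and length trend was taken out. Rpl39 and Rpl13 came to 0.92 and 0.91. Many ribosomal protein genes have near-identical pseudogene copies, so their values are uncertain.

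Chromatin and imprinted genes completed the lists. Of 9 DNA methylation enzymes 5 were lower and 0 higher (medians -0.93 and -0.04). Dnmt3a, a de novo methyltransferase, had 6.66 at day 6 and 32.2 at 24 h, and Tet2, a demethylating dioxygenase, had 4.12 and 18.3. Of 15 genes of H4K20 and H3K9 methylation and HP1 silencing 6 were lower and 1 was higher (-0.29 and 0.58, or -0.24 and 0.13 with TMM scaling). Zfp57, which protects imprints, had 9.56 at day 6 and 166 at 24 h, Trim28 (KAP1), the corepressor it recruits, had 52.9 and 237, and the histone chaperone Daxx had 7.38 and 31.2. Of 19 imprinted genes 7 were higher and 1 lower, with 4 of the 19 passing only through day 6 (medians 0.73 and 1.20). Igf2, the fetal growth factor, had 389 at day 6 and 5.00 at 24 h (log2 fold 6.25, 6.18 to 6.38). H19, its neighbouring noncoding RNA, had 30.0 and 1.40, and Peg3 had 44.7 and 2.90.

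The largest gains in absolute RPKM, listed after the values were seen, included Rps26, Mt1, Srgn, Rpl39, Sparc, Wbp5, Ctsl and B2m. Srgn gained 1476, Sparc 1092, the lysosomal protease gene Ctsl 734 and B2m, the light chain of class I MHC, 710 (740.3 at day 6 and 30.8 at 24 h). The largest losses included Ptma, Rps20, Hsp90aa1, Prdx1 and Dppa5a, the last an ES cell RNA-binding protein with 168 at day 6 and 1006 at 24 h. Tcf15, a bHLH factor of ES cells about to leave the naive state, had 22.6 at day 6 and 360.4 at 24 h.

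How long the differences lasted was read from the later shSmyd5 libraries. Depletion was weaker there, with Smyd5 at 9.14 at day 10 and 6.88 at day 14, against 0.492 at day 6. Of the 1746 genes that were higher at day 6, 1482 were still at least 2-fold above 24 h at day 14, 560 were at least 2-fold above day 6 by then and 193 at least 2-fold below it. Against shSmyd5 ES cells, 1155 of the 1746 were at least 2-fold higher at day 6, and 515 had been at least 2-fold lower at 24 h. Median RPKM of these genes was 3.74 in ES cells and 2.34 in 24 h EBs, then 9.98 on day 6, 14.3 on day 10 and 15.2 on day 14. Of the 1911 genes that were lower, 1034 were at least 2-fold below 24 h at day 14, and 615 were at least 2-fold above day 6. For them the median was 17.3 in ES cells and 15.0 in 24 h EBs, then 4.65 on day 6, 8.51 on day 10 and 7.52 on day 14. Since the genes were picked on the 24 h and day 6 values, some return from day 6 is built into these counts.

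The shLuc course shares no library with the shSmyd5 course, and 8535 genes passed the limit in both. Of the 1487 genes higher in shSmyd5 EBs, 1034 were also at least 2-fold higher in shLuc EBs, 439 lay between and 14 were at least 2-fold lower. Of the 1700 genes lower in shSmyd5 EBs, 387 were also lower in shLuc EBs, 1210 lay between and 103 were higher. Among all 8535 genes, 2067 were at least 2-fold higher and 606 at least 2-fold lower in shLuc EBs. Spearman's rho between the folds was 0.574 across genes, which is a description, since genes do not vary independently. The counts depend on scaling: with TMM 803 genes were higher in both, 579 lower in both, 27 higher in shSmyd5 and lower in shLuc EBs, and 38 the other way, and with DESeq2 size factors these numbers were 726, 674, 33 and 32. The 14 genes included Foxa1, the coagulation inhibitor Tfpi (247 at day 6 and 45.7 at 24 h in shSmyd5, 20.4 and 46.6 in shLuc EBs) and Sar1b, which builds secretory vesicles. The 103 included Lef1 and the antioxidant enzyme gene Gpx4 (7.16 and 19.4 in shSmyd5, 50.3 and 6.06 in shLuc EBs), which went opposite ways by 2-fold or more under each scaling. Fdps and Mvd were also among them, with shLuc folds of 1.37 and 1.27 that TMM scaling lowers to 0.92 and 0.82.

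**Figure D4:**
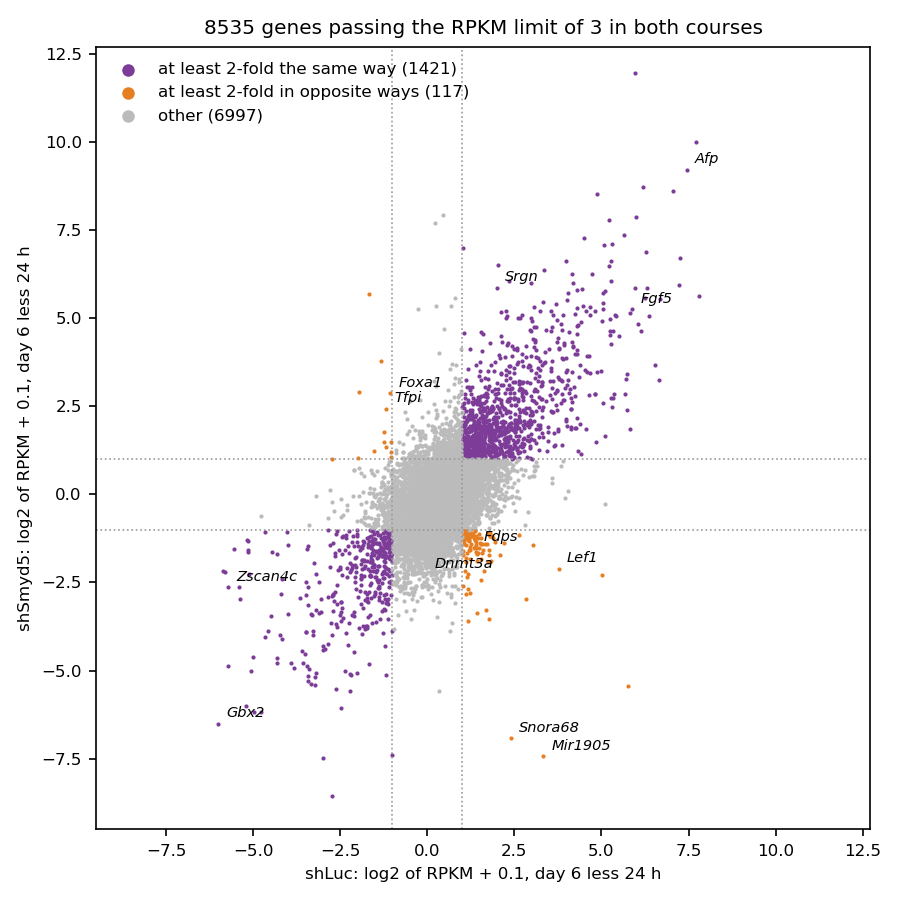
Log2 fold, day 6 less 24 h, in shSmyd5 (y axis) against shLuc EBs (x axis) for 8535 genes, 1 point per gene; dotted lines mark 2-fold. Genes past 2-fold the same way in both courses number 1034 higher and 387 lower, while 14 and 103 (orange) went opposite ways, counts that other scalings change to 27 and 38 (TMM) or 33 and 32 (DESeq2).

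Where RPKM reached 10 in any of the 4 EB libraries, the fold in shSmyd5 exceeded that in shLuc most for Ly6a, Snord12, Mir678, Hoxa10 and Cxcl10. Ly6a (SCA1), a surface antigen of stem and stromal cells, had 19.2 at day 6 and 0.144 at 24 h in shSmyd5 EBs and 0.468 and 2.01 in shLuc EBs. Cxcl10, an interferon-induced chemokine, had 12.5 at day 6 and 0 reads at 24 h in shSmyd5 EBs, at least 185-fold higher, and 0.466 and 0.245 in shLuc EBs. Hoxa10, a posterior Hox gene, had 2.31 and 0.685 in shSmyd5 EBs, under the limit of 3, and 0.365 and 11.8 in shLuc EBs. The 5 lowest differences belonged to Mir1905, Snora68, Snord38a, Mir202 and Mir3064, of 59 to 98 bases in length. For these, as for Snord12 and Mir678, the source of the reads was not tested.

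Folds also followed base composition. A transcript sequence was found for 8771 of the 9132 genes (96.0%), and Spearman's rho between GC content and fold, taken over genes, was -0.17 in shSmyd5 and 0.20 in shLuc EBs. The genes at least 2-fold higher in shSmyd5 EBs had a median GC content of 49.1%, those at least 2-fold lower 52.4% and all members 49.5%. In the 10 groups of genes ordered by GC content the median log2 fold in shSmyd5 EBs was 0.18 in the lowest group and -0.51 in the highest, against 0.21 and 0.73 in shLuc EBs. With a trend on GC content and transcript length taken out, the medians of the carriers, the naive regulators and the replication genes were 5.96, -2.30 and -1.04 in shSmyd5 EBs. The share of base composition in the differences between the courses was not tested further.

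**Figure D5:**
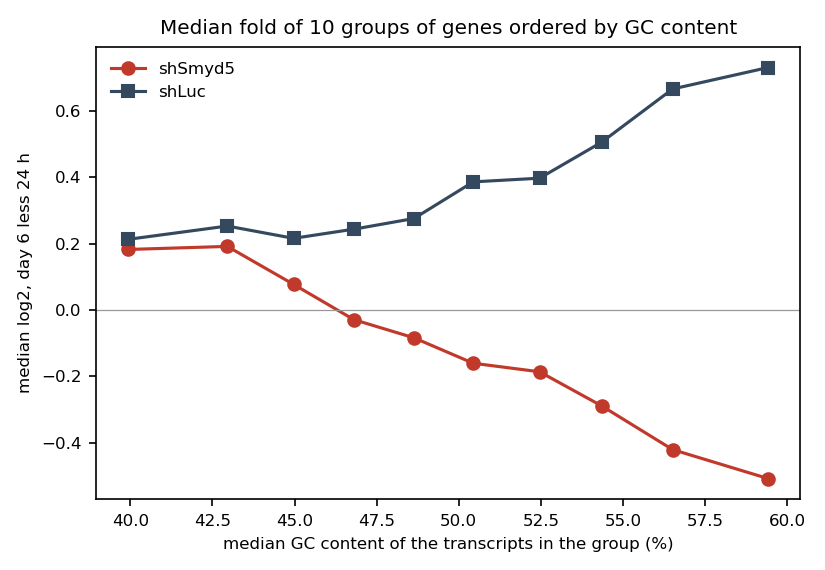
Median log2 fold, day 6 less 24 h (y axis), of 10 groups of 877 or 878 genes placed at the median GC content of their transcripts in percent (x axis), in shSmyd5 (circles) and shLuc EBs (squares). The shSmyd5 median is 0.18 in the lowest and -0.51 in the highest GC group, and the shLuc median 0.21 and 0.73.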

How the data were processed

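PolyA RNA was sequenced in 10 libraries of shSmyd5 and shLuc R1 ES cells and EBs, 1 per condition. The authors aligned reads to the mm9 genome (Bowtie2 and CASAVA are named, versions not given in the sources used here) and deposited, for each of 29257 RefSeq transcripts, its whole read count and its RPKM. In 100% of values with over 200 reads the deposited RPKM lay within 1% of that computed from the read count, length and a library total. That total was itself solved from the deposited RPKM and read counts, so the check shows only that each library has a single scale. For the 4019 genes with several transcripts, the transcript whose read count averaged highest over the 10 libraries was kept. No strand is known, so reads of overlapping antisense genes cannot be told apart.

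Folds were log2 of RPKM plus 0.1, day 6 less 24 h, with the exact binomial 95% interval of the read ratio, which covers counting error only. The genes and the 38 gene lists were chosen with earlier results of these data known. The lists hold the markers: Sox17 is an endoderm factor, Srgn a parietal endoderm and proteoglycan gene and Lama1 a basement membrane gene. Lists also overlap and are not separate results. Sparc, for example, is a basement membrane and a mesenchymal gene, and Krt18 a trophoblast and an epithelial gene. Genes named are Smyd5, the markers, the 12 highest and 12 lowest folds at an RPKM of at least 10, the 3 largest folds of each list, the 5 largest differences from shLuc in either direction and the genes at the RPKM limit; others are named as list members or as chosen after their values were seen. Coordinates and GC content came from GENCODE M1 on NCBIM37 (mm9); 8909 of the 9132 genes had 1 location. Folds were also freed of a spline trend (6 knots) on GC content and log length. Alternatives changed the pseudocount (1, 0.01), the RPKM limit, the scaling (edgeR TMM, DESeq2 size factors), the transcript and the call (edgeR exact test at a dispersion set by hand, biological coefficient of variation 0.2 or 0.4, adjusted p threshold 0.001). The steps were tested on simulated data. R 4.3.3 ran edgeR 4.0.16 and DESeq2 1.42.0; Python 3.11.15 ran scipy 1.17.1, pandas 2.3.3, scikit-learn 1.9.0, numpy 2.4.6 and matplotlib 3.10.9. A few list members are not reported by name here.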

Additional observations from a re-analysis of the deposited data

Results flagged for a closer look

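The 5 named below are among the 103 genes that were at least 2-fold lower at day 6 in shSmyd5 EBs and at least 2-fold higher in shLuc EBs. With 1 library per condition the difference was not tested. They are not the 5 largest differences of the 103, since Lef1 and Gpx4 had -5.88 and -4.46. The fold in shSmyd5 less that in shLuc was -10.76 on the log2 scale for Mir1905 (-15.16 to -6.35), -9.30 for Snora68 (-13.73 to -4.88) and -7.31 for Snord38a (-11.46 to -3.16), all lower at day 6 in shSmyd5 EBs and higher in shLuc EBs. Mir1905 had 0 reads at day 6 and 59 at 24 h in shSmyd5 EBs, against 72 and 2 in shLuc EBs. Snora68 had 0 and 49 in shSmyd5 EBs, against 38 and 2 in shLuc EBs, and Snord38a had 17 and 55, against 12 and 0. The counting interval of the Snord38a fold in shLuc EBs reached down to -0.28 and so includes no change. These sizes depend on the pseudocount, and the difference of Mir1905 was -6.87 at a pseudocount of 1 and -14.16 at 0.01. Mir1905, Snora68 and Snord38a are short features in polyA libraries. Whether their reads came from the small RNAs or from longer transcripts over the same bases was not tested. For the mevalonate pathway genes Fdps and Mvd the differences were -2.87 (-3.08 to -2.65) and -2.67 (-2.98 to -2.36), again lower in shSmyd5 EBs and higher in shLuc EBs. With TMM scaling the differences of Fdps and Mvd were -2.36 and -2.18, and their shLuc folds, 0.92 and 0.82, lay under 2-fold.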

How the results depend on the processing

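No named gene past 2-fold in shSmyd5 EBs changed sign under the alternatives run. Among the other named genes, Slc30a1 (0.45) had -0.05 without the GC and length trend. The counts of genes past 2-fold at day 6, 1746 higher and 1911 lower, moved with the RPKM limit: 2630 were higher at a limit of 1 (2459 lower), 872 higher and 1193 lower at 10, 747 higher and 1181 lower at 3 in both libraries, and 4106 higher and 3234 lower without a limit. Requiring also an edgeR exact test (adjusted p threshold 0.001) left 1142 higher and 770 lower at an assumed biological coefficient of variation of 0.2, and 279 higher and 91 lower at 0.4, so the number of calls depends on the assumed spread. Which count was the larger also turned: more genes were higher than lower with TMM, at a limit of 1, without a limit and at both assumed spreads. A pseudocount of 1 or 0.01, TMM scaling (1839 and 1807), DESeq2 size factors (1746 and 1917), the GC and length correction (1433 and 2047) and the other choice of transcript (1753 and 1909) kept both counts within 1.5-fold, as did leaving out transcripts under 200 bases (1726 and 1885), which was chosen after seeing the data. No paired analysis was possible because each condition has 1 library. Of the settings run for single genes, 502 values stayed within their counting interval and 242 did not, and of those for list medians 240 stayed and 26 moved. Medians of the primed epiblast, neural, ribosomal and G1 lists changed sign with a setting (mean RPKM limit of 3, or GC and length), the neural one to 1.13. TMM scaling moved the shSmyd5 folds by 0.06 and the shLuc folds by -0.46: 103 genes lower in shSmyd5 and higher in shLuc EBs became 38 with TMM and 32 with DESeq2, and 14 the other way became 27 and 33. With TMM several list medians became higher in shSmyd5 than in shLuc EBs. These included basement membrane (1.57 and 1.09), lysosomal (1.80 and 1.35) and proteoglycan genes (1.43 and 1.12). Epithelial (3.24 and 2.87), trophoblast (2.33 and 2.11) and Wnt genes (1.38 and 1.11) turned likewise. Genes with 0 reads in 1 library (64 at 24 h and 45 at day 6) have folds bounded only by depth.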
